A study of Mus musculus with 23 samples.

Results

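Whole jejunum of mice immunized against ovalbumin was compared between the first day of an oral egg white challenge and the state before any challenge, with the 2 genotypes of the series pooled. The comparison used every library of the 2 states, 9 of the 23 libraries of the series: 5 of challenge day 1 (3 from Cpa3+/+ mice, the wild type, and 2 from Cpa3Cre/+ mice) and 4 of immunized mice without challenge (2 of each genotype). The mice of all 9 libraries had received 25 µg ovalbumin with 2 mg alum into the peritoneal cavity on days 0 and 14. Day 1 mice were in addition offered, on day 20, a choice of plain water and water containing egg white (20%) and sugar (8%). Ovalbumin is the main protein of egg white. The 3 Cpa3+/+ day 1 and both Cpa3+/+ immunized libraries came from females, and each Cpa3Cre/+ state held 1 male and 1 female library. Cpa3Cre/+ mice carry a Cre recombinase at the locus of carboxypeptidase A3, a mast cell protease, and are described by the submitters as lacking mast cells. The labels gave neither the strain nor the age, the amount drunk or the hour of sampling, and no library came from mice offered sugar water without egg white. Egg white, sugar and the handling of the bottle test can therefore not be told apart in this comparison.

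The jejunum is the main site of nutrient uptake. Its epithelium of absorptive enterocytes, mucus-forming goblet cells, antimicrobial Paneth cells and rarer tuft and endocrine cells is renewed from crypt stem cells and lies over a tissue of immune cells, vessels, nerves and muscle. Its genes follow meals, the day and night cycle and the glucocorticoid hormones of the adrenal gland. In food allergy, antigen can activate mast cells through IgE, and the type 2 cytokines interleukin 4 and 13 change epithelial genes over the following days. The question put here was which genes were higher or lower after 1 day in Cpa3+/+ and Cpa3Cre/+ mice alike.

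Levels are given in CPM (counts scaled to a common library size, with TMM factors over all 23 libraries), and the values of a group follow the order of its replicate numbers. Differences are log2 fold changes, day 1 minus immunized with genotype as a covariate, followed by an approximate standard error. Total counts of the 9 libraries lay between 11.91 and 16.14 M reads. The genotype check held for Cpa3, which stood at 1.85 to 6.48 CPM in the 5 Cpa3+/+ libraries and at 0.153 to 0.62 CPM in the 4 Cpa3Cre/+ libraries. It did not hold for the mast cell protease genes Mcpt1 and Mcpt2, also planned for it. In both, Cpa3Cre/+ day 1 replicate 2 lay within the range of the Cpa3+/+ libraries. Summed CPM of the mast cell list was 70.5 in that library. It was 25.6 to 44.2 in the other Cpa3Cre/+ libraries and 72.3 to 193 in the Cpa3+/+ libraries. Cpa3+/+ day 1 replicate 2 stood apart from the other 8 libraries. It held 441 genes over 2 times the highest of the others and 802 genes under 1/2 of the lowest, against 2 to 33 and 1 to 16 genes for each other library. Its correlations with the others in log2 CPM ran from 0.944 to 0.953, and the first principal component, with 42.8% of the variance, placed it at 80.4 and the others between -15.3 and -3.84. Results are therefore given with and without this library. In whole tissue, fewer cells of a type and less RNA per cell cannot be told apart. On the second component (16.6% of the variance), Cpa3Cre/+ day 1 replicate 2, from a male, lay at 45.6 and all others at 2.56 or below.

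**Figure D1:**
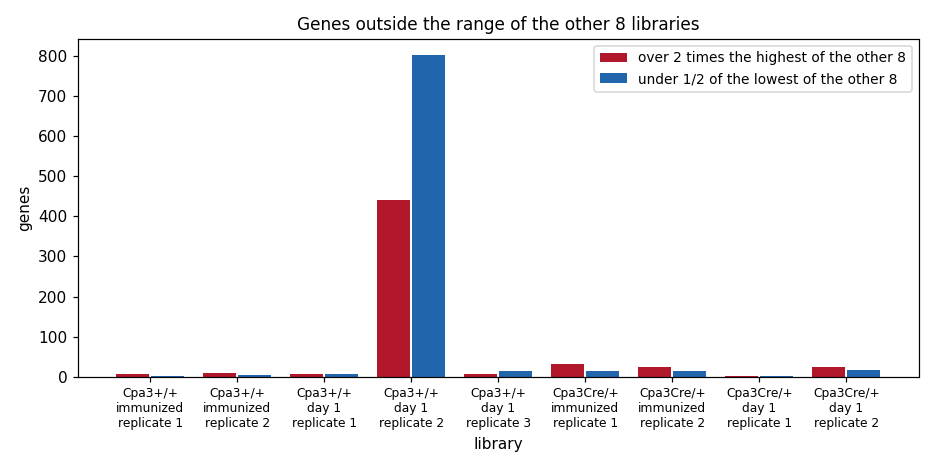
For each of the 9 libraries, the bars count genes whose CPM lay over 2 times the highest (red) or under 1/2 of the lowest (blue) of the other 8 libraries, with at least 1 CPM on the higher side. Cpa3+/+ day 1 replicate 2 holds 441 and 802 genes, and no other library more than 33.

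Over all genes, edgeR's quasi-likelihood test called no gene after adjustment for 16060 genes tested (0% called). The smallest adjusted p was 0.966, with 192 genes higher and 331 lower at an unadjusted p under 0.05, together 3.26% of the genes tested. DESeq2 also called 0 genes, with a smallest adjusted p of 0.0885 and 576 genes at an unadjusted p under 0.05. Without Cpa3+/+ day 1 replicate 2, edgeR again called 0 of 15965 genes (0%), with a smallest adjusted p of 0.943 and 282 genes higher and 432 lower at an unadjusted p under 0.05. With genes of low counts kept in, edgeR called 102 higher and 114 lower genes (93 and 153 without the library), but 0 when its version 4 quasi-likelihood method was used on the same genes. The spread of libraries around the fit of genotype and state, as the biological coefficient of variation, was 27.2% with that library and 20.5% without it. In the fit with the interaction of genotype and state it was 26.1% and 18.6%. The median standard error of a log2 fold change between the states was 0.22 with that library and 0.18 without it. In simulated counts with the spread of the 9 libraries, the same edgeR test found 2% of 1.5-fold, 50% of 2-fold and 96% of 4-fold changes over 16060 genes. With the spread of the 8 libraries it found 16%, 66% and 92% over 15965 genes. Among the unchanged genes of the 8-library simulation edgeR called 9 and DESeq2 22. The simulation drew every library independently and held no library that stands apart across many genes and no difference between genotypes. The shares found in it may therefore not hold for the real libraries.

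DESeq2 called 10 genes without Cpa3+/+ day 1 replicate 2, 0.0626% of those tested. The 4 higher genes were Sgk1, a kinase that raises sodium transport and is induced by steroid hormones, Pck1, the committing enzyme of gluconeogenesis, St3gal4, a sialyltransferase, and Mgl2, a lectin of macrophages and dendritic cells. The 6 lower ones were Stom, which encodes the membrane protein stomatin, Cited2, a regulator that binds the coactivators p300 and CBP, Rab43, a small GTPase, B3galt5, a galactosyltransferase, and the antibody gene segments Ighv1-18 and Igkv3-7, whose reads can be shared with related segments. The log2 fold changes by DESeq2 ranged from 0.73 (Pck1) to 1.61 (St3gal4) among the higher and from -0.66 (Cited2) to -2.06 (B3galt5) among the lower genes, with adjusted p from 0.0081 (Sgk1 and Cited2) to 0.0467 (DESeq2). These genes were singled out after their values were seen. The edgeR adjusted p of each was at least 0.943. When each of the other 8 libraries was left out in turn, DESeq2 called 2 (without Cpa3Cre/+ day 1 replicate 1) to 26 genes (without Cpa3Cre/+ immunized replicate 2). Sgk1 was called in 6 of these 8 fits and not without Cpa3+/+ immunized replicate 1 or Cpa3Cre/+ day 1 replicate 1. St3gal4 was called in 5 and not without either of those libraries or Cpa3+/+ immunized replicate 2. Stom and Cited2 were called in 4: both were lost without Cpa3+/+ immunized replicate 1 or 2 or Cpa3Cre/+ immunized replicate 1, Stom also without Cpa3+/+ day 1 replicate 1 and Cited2 without Cpa3Cre/+ day 1 replicate 1. Pck1 and B3galt5 were called in 3, and Mgl2 and Rab43 in none. Pck1 was lost without Cpa3+/+ immunized replicate 1 or 2, Cpa3+/+ day 1 replicate 3, Cpa3Cre/+ immunized replicate 1 or Cpa3Cre/+ day 1 replicate 1. B3galt5 was lost without Cpa3+/+ immunized replicate 2, Cpa3+/+ day 1 replicate 1, Cpa3Cre/+ immunized replicate 1 or Cpa3Cre/+ day 1 replicate 1 or 2. Of the antibody segments, Igkv3-7 was called in 4 and lost without Cpa3+/+ immunized replicate 1, Cpa3+/+ day 1 replicate 1 or Cpa3Cre/+ day 1 replicate 1 or 2, and Ighv1-18 in 3 and lost without Cpa3+/+ immunized replicate 1, Cpa3+/+ day 1 replicate 1 or 3, Cpa3Cre/+ immunized replicate 1 or Cpa3Cre/+ day 1 replicate 1.

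In 159 of the 16060 genes all 5 day 1 libraries lay above all 4 immunized libraries (0.99%), and in 109 genes all lay below (0.679%). These numbers were 288 (1.79%) and 181 (1.13%) without Cpa3+/+ day 1 replicate 2. With so few libraries, genes can separate in this way without a difference between the states, and the number expected so was not computed. Genes named below for their separation show it because they were chosen by it. No gene named in the following paragraphs passed the edgeR test, so their differences are given as values. In the plot of separate genes, 12 of those with the smallest unadjusted p are drawn library by library.

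**Figure D2:**
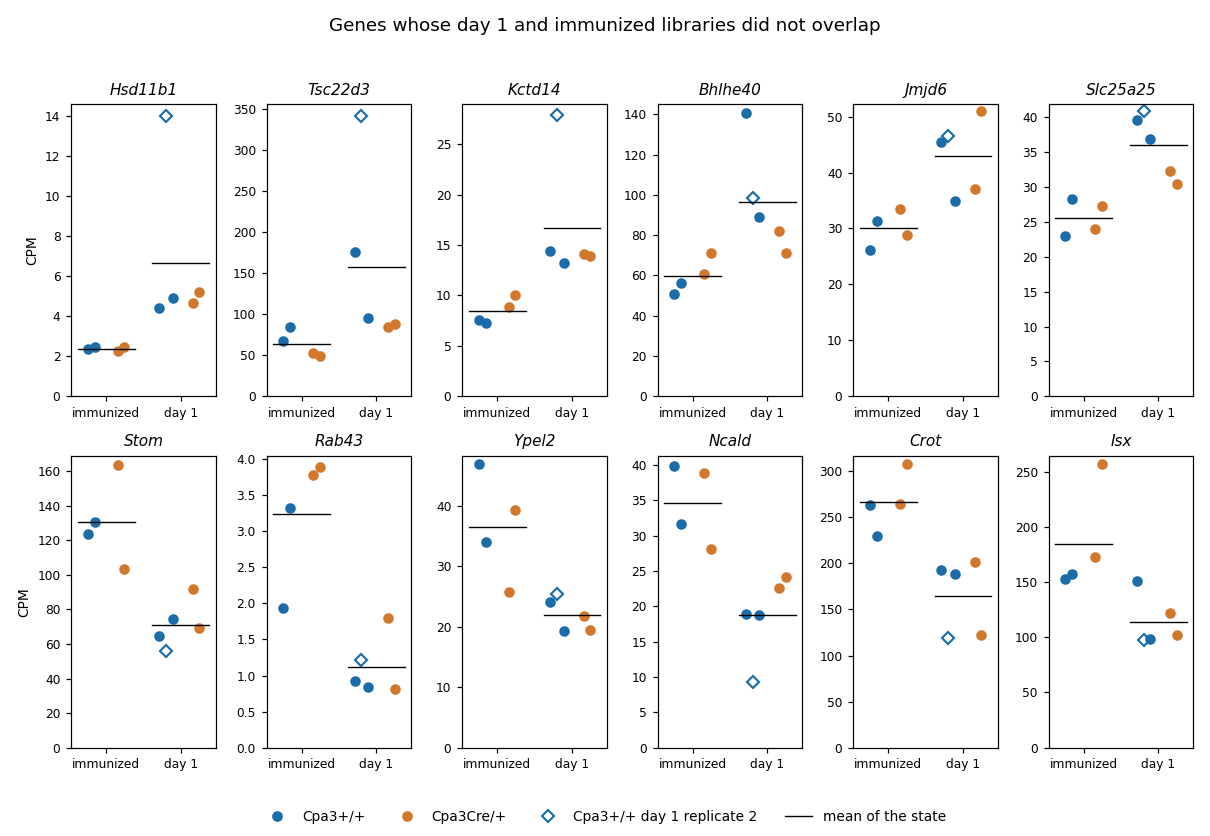
CPM (linear axes starting at 0) of 6 genes whose 5 day 1 libraries all lay above the 4 immunized libraries (upper row) and 6 genes whose day 1 libraries all lay below (lower row). Points are libraries, coloured by genotype, the open diamond is Cpa3+/+ day 1 replicate 2 and lines are means over a state. For Hsd11b1 the immunized libraries lie between 2.26 and 2.44 CPM and the day 1 libraries between 4.38 and 14 CPM.

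Of the 17 glucocorticoid-induced genes of the list described further below, 1 had all day 1 libraries above all immunized ones, Tsc22d3, against 0.99% of all genes. Hsd11b1, which is not part of that count, encodes the enzyme that regenerates active glucocorticoid from its inactive form within cells (chromosome 1, 193221634 to 193264075, minus strand, GRCm38). Its immunized libraries stood at 2.35 and 2.43 CPM (Cpa3+/+) and 2.26 and 2.44 CPM (Cpa3Cre/+), and its day 1 libraries at 4.38, 14 and 4.88 CPM (Cpa3+/+) and 4.65 and 5.22 CPM (Cpa3Cre/+). The immunized values were almost equal and every day 1 value was higher, with Cpa3+/+ day 1 replicate 2 highest. The difference was 1.39 ± 0.37, and 0.99 ± 0.20 without that library. Tsc22d3, which encodes the glucocorticoid-induced leucine zipper protein (chromosome X, 140539528 to 140600659, minus strand), stood at 67.5 and 84.2 CPM (Cpa3+/+) and 53.3 and 49.6 CPM (Cpa3Cre/+) in immunized mice and at 176, 342 and 95.5 CPM (Cpa3+/+) and 84.6 and 87.8 CPM (Cpa3Cre/+) on day 1. The ranges came close to each other, from 84.2 CPM in the highest immunized library to 84.6 CPM in the lowest day 1 library, and the difference was 1.10 ± 0.32, or 0.76 ± 0.17 without Cpa3+/+ day 1 replicate 2. Nr3c1, the gene of the glucocorticoid receptor, lay in the other direction, at 176 and 173 CPM (Cpa3+/+) and 180.2 and 161 CPM (Cpa3Cre/+) before and 132, 89.4 and 154 CPM (Cpa3+/+) and 149 and 109 CPM (Cpa3Cre/+) on day 1 (-0.47 ± 0.18 and, without the library, -0.37 ± 0.14). This gene was chosen after its values were seen.

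Kctd14, a gene of the potassium channel tetramerization domain family (chromosome 7, 97451323 to 97459557, plus strand), stood at 7.6 and 7.3 CPM (Cpa3+/+) and 8.81 and 10 CPM (Cpa3Cre/+) in immunized mice and 14.4, 28 and 13.3 CPM (Cpa3+/+) and 14.1 and 14 CPM (Cpa3Cre/+) on day 1. Its 4 day 1 libraries other than Cpa3+/+ day 1 replicate 2 lay within 13.3 to 14.4 CPM, a narrow band above the highest immunized library at 10 CPM, and the difference was 0.95 ± 0.26 with that library and 0.71 ± 0.14 without it. Bhlhe40, a transcription factor that represses clock genes and is induced by many stimuli, stood at 50.8 and 56 CPM (Cpa3+/+) and 60.6 and 71.2 CPM (Cpa3Cre/+) and then at 141, 98.3 and 88.8 CPM (Cpa3+/+) and 82.3 and 71.3 CPM (Cpa3Cre/+) (0.64 ± 0.20, and 0.63 ± 0.20 without Cpa3+/+ day 1 replicate 2). Its lowest day 1 library, 71.3 CPM, lay just above the highest immunized library, 71.2 CPM. Slc25a25, a calcium-regulated ATP-magnesium carrier of mitochondria, stood at 22.9 and 28.3 CPM (Cpa3+/+) and 24 and 27.3 CPM (Cpa3Cre/+) before and 39.6, 41 and 37 CPM (Cpa3+/+) and 32.3 and 30.5 CPM (Cpa3Cre/+) on day 1, with a difference of 0.45 ± 0.14, or 0.41 ± 0.12 without Cpa3+/+ day 1 replicate 2. Jmjd6, an arginine demethylase and lysyl hydroxylase of the nucleus, differed by 0.51 ± 0.15 (0.46 ± 0.14 without the library). Mmp10, a matrix metalloproteinase, differed by 0.55 ± 0.17 and 0.44 ± 0.13 in the same order, and C6, a component of the complement attack complex, by 0.65 ± 0.19 and 0.61 ± 0.18. Pnliprp1, a gene related to pancreatic lipase, stood at 1.8 and 2.03 CPM (Cpa3+/+) and 2.04 and 1.53 CPM (Cpa3Cre/+) and 2.15, 2.05 and 4.73 CPM (Cpa3+/+) and 5.21 and 4.78 CPM (Cpa3Cre/+), with the first 2 Cpa3+/+ day 1 libraries close to the immunized ones. The remaining separate genes of the rule were Iffo2 (0.68 ± 0.21), the noncoding snoRNA host Snhg12 (0.59 ± 0.19) and Ccdc84 (0.45 ± 0.15). The genes of Hsd11b1, Jmjd6, Slc25a25 and Ccdc84 overlap a protein-coding gene on the other strand in the annotation, and Iffo2 a predicted gene on its own strand. The library kit was a stranded one, and the strand setting of the counting was not given in the sources used here.

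Among the lower genes, Stom, whose product organizes membrane proteins and channels, stood at 124 and 131 CPM (Cpa3+/+) and 164 and 103 CPM (Cpa3Cre/+) in immunized mice and 64.7, 55.9 and 74.4 CPM (Cpa3+/+) and 91.9 and 69.4 CPM (Cpa3Cre/+) on day 1. The highest day 1 library, 91.9 CPM, lay below the lowest immunized library, 103 CPM, with a difference of -0.88 ± 0.17 over 9 and -0.82 ± 0.16 over 8 libraries. Rab43, which acts in transport through the Golgi apparatus, was low throughout, at 1.93 and 3.32 CPM (Cpa3+/+) and 3.79 and 3.89 CPM (Cpa3Cre/+) before and 0.923, 1.21 and 0.838 CPM (Cpa3+/+) and 1.8 and 0.808 CPM (Cpa3Cre/+) on day 1 (-1.49 ± 0.31 and -1.57 ± 0.31). The annotation holds another protein-coding gene model on its strand at the same place, so its reads may be split. Ypel2, a member of the yippee-like family, stood at 46.9 and 34 CPM (Cpa3+/+) and 25.7 and 39.3 CPM (Cpa3Cre/+) and then at 24, 25.4 and 19.3 CPM (Cpa3+/+) and 21.8 and 19.5 CPM (Cpa3Cre/+) (-0.77 ± 0.17 and -0.81 ± 0.17). The highest day 1 library, Cpa3+/+ replicate 2 at 25.4 CPM, lay just below the lowest immunized library at 25.7 CPM. Ncald, which encodes the calcium sensor neurocalcin delta, stood at 39.8 and 31.7 CPM (Cpa3+/+) and 38.8 and 28 CPM (Cpa3Cre/+) and 18.9, 9.32 and 18.8 CPM (Cpa3+/+) and 22.6 and 24.2 CPM (Cpa3Cre/+) (-0.91 ± 0.23 and -0.74 ± 0.15), and Cpa3+/+ day 1 replicate 2 was the lowest of the 9.

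Isx, the intestinal homeobox factor that represses vitamin A uptake and cleavage genes, stood at 153 and 157 CPM (Cpa3+/+) and 173 and 257 CPM (Cpa3Cre/+) in immunized mice and 151, 97.2 and 98.9 CPM (Cpa3+/+) and 122 and 102 CPM (Cpa3Cre/+) on day 1 (-0.68 ± 0.20, and -0.65 ± 0.19 without Cpa3+/+ day 1 replicate 2). The first Cpa3+/+ day 1 library, at 151 CPM, lay next to the lowest immunized library at 153 CPM. Crot, the peroxisomal carnitine octanoyltransferase, stood at 263 and 230.2 CPM (Cpa3+/+) and 264 and 307 CPM (Cpa3Cre/+) and 193, 119 and 188 CPM (Cpa3+/+) and 202 and 122 CPM (Cpa3Cre/+) (-0.70 ± 0.20 and -0.62 ± 0.18). B3galt5 stood at 2.49 and 8.51 CPM (Cpa3+/+) and 13.9 and 2.52 CPM (Cpa3Cre/+) before and 1.38, 2.42 and 1.98 CPM (Cpa3+/+) and 1.36 and 1.76 CPM (Cpa3Cre/+) on day 1, so its immunized libraries spread over more than its day 1 libraries, and differed by -1.93 ± 0.52. Igfbp5, an insulin-like growth factor binding protein, differed by -0.65 ± 0.18, and Galnt7, an enzyme that starts mucin-type sugar chains, by -0.59 ± 0.17. The others named by the rule were Tmem64 (-0.54 ± 0.14), the hydroxylysine kinase gene Hykk (-0.90 ± 0.25) and Slc35f5 (-0.65 ± 0.18), a member of the nucleotide sugar carrier family. For these 5 genes the values without Cpa3+/+ day 1 replicate 2 lay between -0.77 (Hykk) and -0.52 (Galnt7).

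A further set of genes separated the states once Cpa3+/+ day 1 replicate 2 was left out. For several of them that library lay on the other side of the immunized range from the rest of day 1. Cited2 stood at 85.1 and 91.3 CPM (Cpa3+/+) and 97.3 and 83.5 CPM (Cpa3Cre/+) in immunized mice and 56.8, 118 and 62.4 CPM (Cpa3+/+) and 51.7 and 57.7 CPM (Cpa3Cre/+) on day 1. The other 4 day 1 libraries lay between 51.7 and 62.4 CPM while Cpa3+/+ replicate 2 was the highest of all 9, so the difference was -0.43 ± 0.23 with it and -0.67 ± 0.12 without. Mgl2 stood at 1.66 and 1.95 CPM (Cpa3+/+) and 1.38 and 2.06 CPM (Cpa3Cre/+) and 3.31, 0.745 and 3.28 CPM (Cpa3+/+) and 5.15 and 5.73 CPM (Cpa3Cre/+), with that library lowest and the 4 others above every immunized library (0.99 ± 0.42 with it, 1.25 ± 0.26 without). Sema7a, a semaphorin of epithelium and immune cells, stood at 56.6 and 57 CPM (Cpa3+/+) and 75 and 75.1 CPM (Cpa3Cre/+) and 116, 15.1 and 104 CPM (Cpa3+/+) and 123 and 84.4 CPM (Cpa3Cre/+) (0.44 ± 0.45 and 0.68 ± 0.15). Kcne3, the potassium channel subunit that supports chloride secretion in the gut, showed the same order, at 33.7 and 52.4 CPM (Cpa3+/+) and 40.3 and 39.3 CPM (Cpa3Cre/+) before and 67.2, 8.01 and 58.1 CPM (Cpa3+/+) and 59.8 and 67.1 CPM (Cpa3Cre/+) on day 1 (0.31 ± 0.47 and 0.58 ± 0.14).

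Of 16 goblet cell genes 1 separated upwards without this library and of 14 Paneth cell genes 0, against 1.79% of all genes. Spdef, the transcription factor of goblet and Paneth cell maturation, stood at 13.1 and 17.3 CPM (Cpa3+/+) and 14.5 and 17.3 CPM (Cpa3Cre/+) in immunized mice and 20.3, 5.5 and 19.4 CPM (Cpa3+/+) and 23.9 and 24.5 CPM (Cpa3Cre/+) on day 1, a difference of 0.47 ± 0.13 without Cpa3+/+ day 1 replicate 2. Reg4, a lectin of secretory and endocrine cells, stood at 109.9 and 111 CPM (Cpa3+/+) and 86.3 and 93.4 CPM (Cpa3Cre/+) and 112, 95.7 and 159.8 CPM (Cpa3+/+) and 199 and 240.3 CPM (Cpa3Cre/+) (0.77 ± 0.22 without the library). Its Cpa3Cre/+ day 1 libraries were the highest of the 9. The further genes named were Acan (1.00 ± 0.27) and Lilra6 (1.19 ± 0.32) on the higher side and Inpp1 (-0.60 ± 0.15), Tnfaip8l3 (-0.63 ± 0.15), Crebrf (-0.66 ± 0.17) and Lcorl (-0.58 ± 0.16) on the lower side. Crebrf, a negative regulator of the factor CREB3, stood at 28.5, 131 and 42.8 CPM (Cpa3+/+) and 39.1 and 30.3 CPM (Cpa3Cre/+) on day 1, where Cpa3+/+ replicate 2 was far above the others.

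The glucocorticoid-induced list showed how much of the average rested on that library. All 17 of its 17 genes had a positive log2 fold change over the 9 libraries, with a median of 1.10 against -0.00 over all genes tested, and 0 were called. Without Cpa3+/+ day 1 replicate 2 the median was 0.18, with 12 of 17 positive, against -0.01 over all genes. Leaving out 1 further library moved this median between 0.03 (Cpa3+/+ immunized replicate 1) and 0.42 (Cpa3Cre/+ immunized replicate 1), with 0.08 without Cpa3+/+ day 1 replicate 3, 0.09 without Cpa3+/+ immunized replicate 2, 0.34 without Cpa3Cre/+ day 1 replicate 2 and 0.35 without Cpa3Cre/+ immunized replicate 2. Over 9 libraries it was 0.69 without Cpa3+/+ immunized replicate 2. Zbtb16, a zinc finger factor strongly induced by steroids, stood at 1.59 and 1.86 CPM (Cpa3+/+) and 0.655 and 1.07 CPM (Cpa3Cre/+) in immunized mice and 0.615, 155 and 11.1 CPM (Cpa3+/+) and 1.12 and 0.882 CPM (Cpa3Cre/+) on day 1. Fkbp5, which encodes a chaperone that dampens the glucocorticoid receptor, stood at 12.6 and 15.6 CPM (Cpa3+/+) and 9.39 and 13 CPM (Cpa3Cre/+) and 28.7, 951 and 61.9 CPM (Cpa3+/+) and 14.5 and 14.8 CPM (Cpa3Cre/+). In both genes Cpa3+/+ day 1 replicate 2 was far above all 8 others, Cpa3+/+ day 1 replicate 3 came second, and the Cpa3Cre/+ day 1 libraries lay within or next to the immunized range. The differences of Fkbp5 were 2.64 ± 1.47 with and 1.03 ± 0.34 without the library. The metallothionein genes Mt1 and Mt2 had 1366 and 932 CPM in this library against medians of 74.7 and 25.8 CPM in the other 8, and without it their differences were -0.23 ± 0.28 and -0.09 ± 0.71.

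Sgk1 stood at 61.2 and 108 CPM (Cpa3+/+) and 63.6 and 40.1 CPM (Cpa3Cre/+) in immunized mice and 331, 1870 and 159 CPM (Cpa3+/+) and 119 and 97.1 CPM (Cpa3Cre/+) on day 1, with 1 overlap: the lowest day 1 library, at 97.1 CPM, lay below Cpa3+/+ immunized replicate 2. The differences were 2.20 ± 0.82 with and 1.27 ± 0.27 without Cpa3+/+ day 1 replicate 2. Pck1 stood at 369 and 468 CPM (Cpa3+/+) and 264 and 308 CPM (Cpa3Cre/+) and 682, 7483 and 884 CPM (Cpa3+/+) and 489 and 366 CPM (Cpa3Cre/+) (1.77 ± 0.83 and 0.72 ± 0.18). The Cpa3+/+ day 1 libraries were above every immunized library, and 1 of the Cpa3Cre/+ day 1 libraries, at 366 CPM, lay within the immunized range. Ddit4, a stress and glucocorticoid-induced inhibitor of the growth kinase mTORC1, stood at 12.9 and 18.2 CPM (Cpa3+/+) and 11.5 and 13.2 CPM (Cpa3Cre/+) and 20.8, 341 and 25.3 CPM (Cpa3+/+) and 18 and 25.6 CPM (Cpa3Cre/+), with a difference without the library of 0.67 ± 0.17. Summed over the list, CPM was 567 to 747 in the 4 immunized libraries, 8527 in Cpa3+/+ day 1 replicate 2, 1098 and 991 in the other Cpa3+/+ day 1 libraries and 743 and 702 in the Cpa3Cre/+ day 1 libraries. Pmaip1, a p53-induced promoter of cell death, and Cry2, a clock repressor, differed by 0.98 ± 0.90 and 0.71 ± 0.64 with the library and by 0.01 ± 0.22 and 0.01 ± 0.19 without it.

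**Figure D3:**
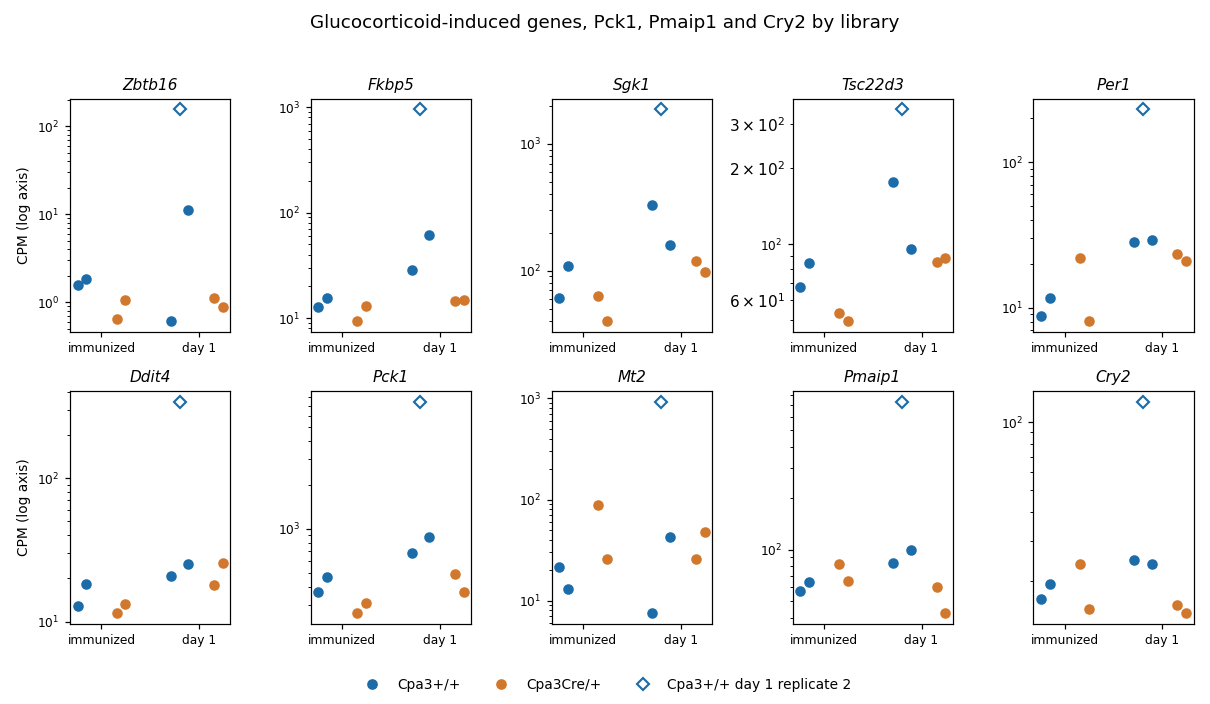
CPM on log axes of 7 glucocorticoid-induced genes and of Pck1, Pmaip1 and Cry2, per library of immunized and day 1 mice, coloured by genotype. The open diamond, Cpa3+/+ day 1 replicate 2, is the highest point in every panel, for Zbtb16 at 155 CPM against at most 11.1 CPM elsewhere among the 9 libraries.

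The same library differed from the other 8 across whole lists. Against their median, the median gene of the glucocorticoid list was higher by 2.97 on the log2 scale, that of the erythroid list by 2.06, of the gluconeogenesis list by 1.27, of the clock repressor list by 1.17 and of the ribosomal protein list by 1.04, where it was the highest library for 19 of 20 genes. Mitochondrially encoded genes were higher there by 0.65. RNA quality was not given, and its part in these values was not tested. The Paneth cell list was lower there by a median log2 difference of -1.01, the alarmin and type 2 list by -0.97, the interferon list by -0.81, the macrophage and the smooth muscle lists by -0.77, the stem cell list by -0.72, the granulocyte list by -0.71 and the goblet cell list by -0.69. Further genes high in this library, chosen after their values were seen, were Cyp3a11, a drug-metabolizing cytochrome (7827 CPM against a median of 975 CPM in the other 8) and Pdk4, which slows glucose oxidation (1070 against 56.2 CPM). Genes low there included Enpp7, the alkaline sphingomyelinase of enterocytes, at 20.6 CPM against at least 150 CPM in the others, and Cx3cr1, a chemokine receptor of intestinal macrophages, at 1.49 against at least 11.7 CPM.

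Clock genes had log2 fold changes of opposite sign by role, with large differences between libraries of a state. Among 13 repressor and output genes 11 had a positive log2 fold change (median 0.71, or 0.47 without Cpa3+/+ day 1 replicate 2), and of 6 activators 4 had a negative one (median -0.51, or -0.60), with 0 called. Per2, a clock repressor, stood at 9.46 and 18.4 CPM (Cpa3+/+) and 31 and 11.5 CPM (Cpa3Cre/+) in immunized mice and 60.3, 64.4 and 42.8 CPM (Cpa3+/+) and 32.7 and 16.4 CPM (Cpa3Cre/+) on day 1. Per1, induced by both the clock and glucocorticoids, stood at 8.77 and 11.6 CPM (Cpa3+/+) and 22.1 and 8.09 CPM (Cpa3Cre/+) and 28.3, 230.4 and 29.2 CPM (Cpa3+/+) and 23.2 and 20.9 CPM (Cpa3Cre/+) (1.96 ± 0.92, and 0.99 ± 0.31 without the library). Hlf, a clock output factor, differed by 1.20 ± 0.47 and 1.03 ± 0.49. Arntl, the activator that drives the Per genes, stood at 40.7 and 31.6 CPM (Cpa3+/+) and 18.6 and 58.6 CPM (Cpa3Cre/+) and 16.5, 20.2 and 23.3 CPM (Cpa3+/+) and 24.6 and 24 CPM (Cpa3Cre/+) (-0.79 ± 0.28 and -0.79 ± 0.32), and Npas2, its partner, at 44.3 and 28.8 CPM (Cpa3+/+) and 23.7 and 69.5 CPM (Cpa3Cre/+) and 20.2, 11.9 and 30.4 CPM (Cpa3+/+) and 27.7 and 21.4 CPM (Cpa3Cre/+). Nfil3, which opposes the clock outputs, differed by -1.01 ± 0.26 without the library.

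The immunized libraries did not agree among themselves in these genes. Cpa3Cre/+ immunized replicate 1 had the highest Per2 and the lowest Arntl of the 4, while Cpa3Cre/+ immunized replicate 2 and Cpa3+/+ immunized replicate 1 had the reverse. Summed CPM of the repressor and output genes was 402, 507, 791 and 410 in the immunized libraries (Cpa3+/+ and then Cpa3Cre/+) and 756, 1402, 730, 623 and 476 on day 1. Without Cpa3Cre/+ immunized replicate 1 the median of the repressor and output list over the other 8 libraries was 1.45. Without both Cpa3+/+ day 1 replicate 2 and Cpa3+/+ immunized replicate 1 it was 0.05. The hour of sampling was not given, and its part in these values was not tested.

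Genes of sugar uptake had higher summed levels on day 1 in Cpa3+/+ mice and not in Cpa3Cre/+ mice. Their summed CPM was 15206 and 13604 in immunized and 19979, 23898 and 25311 in day 1 Cpa3+/+ libraries, and 18924 and 20954 against 19861 and 12532 in Cpa3Cre/+ libraries. This difference between genotypes was not tested for the sums. Of 17 genes of sugar uptake and use 13 had a positive log2 fold change (median 0.23, or 0.13 without Cpa3+/+ day 1 replicate 2), with 0 called and 0 at an unadjusted p under 0.05. Slc5a1, the sodium-glucose transporter of the brush border, stood at 1454 and 1306 CPM (Cpa3+/+) and 2326 and 1998 CPM (Cpa3Cre/+) in immunized mice and 2727, 3052 and 3367 CPM (Cpa3+/+) and 2685 and 1633 CPM (Cpa3Cre/+) on day 1 (0.59 ± 0.28 and 0.55 ± 0.28). Slc2a2, the exit transporter for glucose and fructose, stood at 284 and 246 CPM (Cpa3+/+) and 429.5 and 470.3 CPM (Cpa3Cre/+) and 589.6, 376 and 701 CPM (Cpa3+/+) and 513 and 308 CPM (Cpa3Cre/+) (0.49 ± 0.29 and 0.55 ± 0.29). For Slc5a1, 4 of 5 day 1 libraries lay above all immunized libraries, and the male Cpa3Cre/+ day 1 replicate 2 lay within their range. For Slc2a2, 3 of 5 lay above, and Cpa3+/+ replicate 2 and Cpa3Cre/+ replicate 2 lay within. Genes of xenobiotic metabolism had a median of -0.36 without Cpa3+/+ day 1 replicate 2, with 19 of 25 negative. With it the median was near 0 (15 of 25 negative, median -0.05). Their summed CPM was lower on day 1 in Cpa3Cre/+ mice, with 10760 and 11245 against 6475 and 5297. In Cpa3+/+ mice it was not lower, with 7272 and 5982 in immunized and 7942, 18589 and 7924 in day 1 libraries. This difference between genotypes was not tested for the sums either. The -0.36 was -0.17 without Cpa3Cre/+ day 1 replicate 2 as well, -0.18 and -0.20 without Cpa3Cre/+ immunized replicate 1 or 2, -0.10 without the 3 libraries with B cell follicle transcripts described below and -0.53 without Cpa3+/+ immunized replicate 2. Cyp2c65, an intestinal cytochrome, stood at 244 and 147 CPM (Cpa3+/+) and 342 and 357 CPM (Cpa3Cre/+) and 143, 316 and 185 CPM (Cpa3+/+) and 186 and 140.1 CPM (Cpa3Cre/+) and differed by -0.70 ± 0.23 without that library, and Cyp2c55, of the same family, by -1.42 ± 0.50. Cyp4a10, a fatty acid hydroxylase induced in fasting, stood at 45.9 and 20.9 CPM (Cpa3+/+) and 77 and 42.8 CPM (Cpa3Cre/+) and 11.8, 61.8 and 30.7 CPM (Cpa3+/+) and 13.6 and 8.67 CPM (Cpa3Cre/+) (-1.55 ± 0.57 without the library). For Cyp2c65 and Cyp4a10 Cpa3+/+ day 1 replicate 2 was the highest day 1 library and lay within the immunized range, and the other day 1 libraries stood at 186 CPM or below for Cyp2c65 and at 30.7 CPM or below for Cyp4a10, overlapping the immunized range.

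Heat shock genes had slightly higher values on day 1 in both forms of the comparison. Of 16 genes 15 had a positive log2 fold change with and 15 without Cpa3+/+ day 1 replicate 2, with medians of 0.19 and 0.27 and 0 called. The first median was 0.06 without Cpa3+/+ day 1 replicate 1, the highest library for 9 of the 16 genes. Hsph1, a large chaperone, stood at 38.5 and 65.7 CPM (Cpa3+/+) and 24.2 and 44.1 CPM (Cpa3Cre/+) in immunized mice and 83.2, 12.2 and 83.5 CPM (Cpa3+/+) and 48.8 and 76.3 CPM (Cpa3Cre/+) on day 1 (0.75 ± 0.23 without the library). Dnajb1, a cochaperone induced by heat, differed by 0.34 ± 0.14 with it and 0.31 ± 0.13 without, and Hspa8, the constitutive chaperone, by 0.44 ± 0.20 and 0.41 ± 0.20. Cell cycle genes had 18 of 24 positive values (median 0.09) and 22 of 24 without the library (median 0.13). Of the 9 libraries, Cpa3Cre/+ immunized replicate 1 was the lowest for 10 of the 24 genes and Cpa3Cre/+ day 1 replicate 2 the highest for 10. Birc5, which acts in chromosome segregation, differed by 0.38 ± 0.15 and 0.30 ± 0.13. Ribosomal protein genes were positive in 20 of 20 with a median of 0.37, which was 0.15 without the library and 0.02 without Cpa3Cre/+ day 1 replicate 2 as well.

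**Figure D4:**
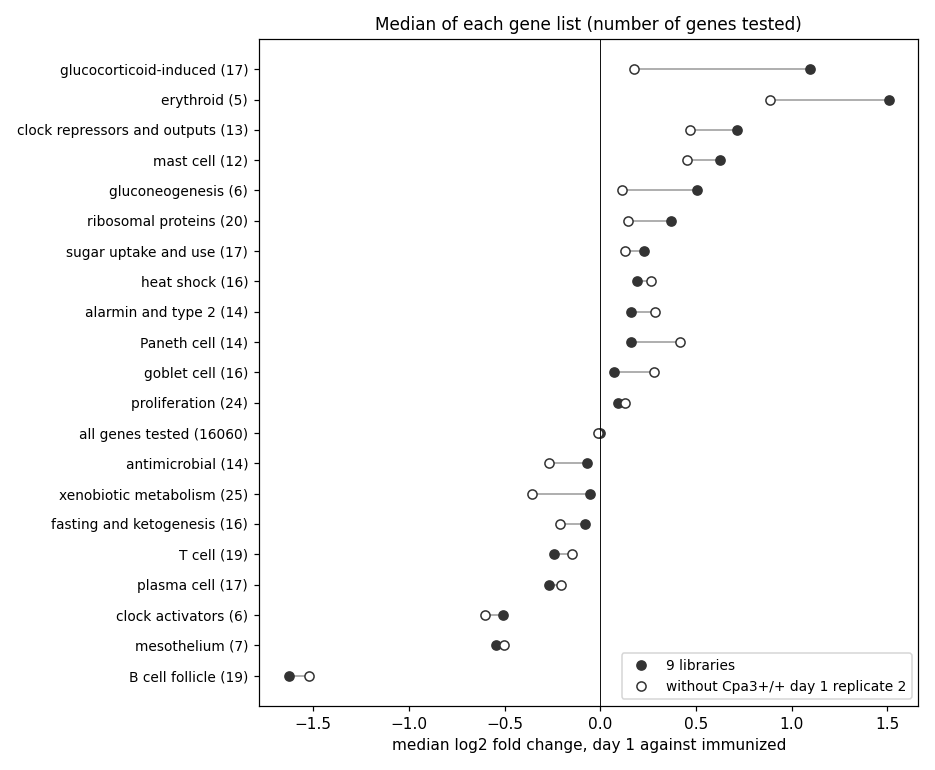
Median log2 fold change, day 1 against immunized, of 20 gene lists and of all genes tested, with the number of genes in parentheses. Filled points use 9 libraries and open points leave out Cpa3+/+ day 1 replicate 2, which moves the glucocorticoid-induced list from 1.10 to 0.18 and the xenobiotic list from -0.05 to -0.36.

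Some epithelial genes of the type 2 response had high values in part of the day 1 libraries. The gasdermin C genes encode pore-forming proteins that are induced in enterocytes by interleukin 4 and 13. Gsdmc4 stood at 2.28 and 1.78 CPM (Cpa3+/+) and 0.291 and 5.19 CPM (Cpa3Cre/+) in immunized mice and 2.92, 1.68 and 113 CPM (Cpa3+/+) and 81.5 and 17.6 CPM (Cpa3Cre/+) on day 1, and Gsdmc2 at 3.25 and 5.59 CPM (Cpa3+/+) and 0.291 and 5.12 CPM (Cpa3Cre/+) and 4, 1.68 and 127 CPM (Cpa3+/+) and 85.2 and 19.5 CPM (Cpa3Cre/+). Gsdmc3 was at or under 0.764 CPM in all immunized libraries and at 0.538, 0.186 and 24.5 CPM (Cpa3+/+) and 18.2 and 2.87 CPM (Cpa3Cre/+) on day 1. In all 3, Cpa3+/+ day 1 replicate 3 and both Cpa3Cre/+ day 1 libraries lay above every immunized library, while Cpa3+/+ day 1 replicates 1 and 2 lay within the immunized range. The differences were 4.21 ± 1.39, 3.73 ± 1.34 and 4.41 ± 1.49, and the near-identical copies can share reads. Pla2g4c, a cytosolic phospholipase A2, followed the same order at 8.15, 1.49 and 175 CPM (Cpa3+/+) and 96.7 and 23.8 CPM (Cpa3Cre/+) on day 1 against 2.56 and 3.49 CPM (Cpa3+/+) and 1.09 and 18 CPM (Cpa3Cre/+) before (3.49 ± 1.42). Over the alarmin and type 2 list, 10 of 14 were positive with a median of 0.16 (0.29 without Cpa3+/+ day 1 replicate 2), and 0 were called.

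Mast cell genes had higher day 1 values in part of the libraries. The proteases Mcpt1 and Mcpt2, of mucosal mast cells, are close relatives whose reads can be shared. Mcpt1 stood at 26.5 and 53.7 CPM (Cpa3+/+) and 4.37 and 5.19 CPM (Cpa3Cre/+) in immunized mice and 35, 27.8 and 111 CPM (Cpa3+/+) and 12.4 and 29.5 CPM (Cpa3Cre/+) on day 1, and Mcpt2 at 10.5 and 20 CPM (Cpa3+/+) and 1.09 and 1.76 CPM (Cpa3Cre/+) and 10.6, 7.18 and 36.7 CPM (Cpa3+/+) and 4.53 and 10.1 CPM (Cpa3Cre/+). Both Cpa3Cre/+ day 1 libraries lay above both Cpa3Cre/+ immunized libraries in both genes. Of the Cpa3+/+ libraries day 1 replicate 3 was highest, and the other two day 1 libraries lay within the Cpa3+/+ immunized range for Mcpt1, while for Mcpt2 day 1 replicate 2 lay below it. The differences were 1.17 ± 0.53 and 1.03 ± 0.60, or 1.41 ± 0.55 and 1.30 ± 0.60 without Cpa3+/+ day 1 replicate 2. Of 12 mast cell genes tested 9 had a positive value (median 0.63, or 0.45), with 0 called. Gata2, a transcription factor of mast cells and other cells, differed by 0.92 ± 0.42 (0.64 ± 0.38 without the library) and Cpa3 by 0.61 ± 0.46 (0.49 ± 0.48). The log2 fold change of Cpa3 was -0.14 when Cpa3+/+ day 1 replicates 2 and 3 were both left out.

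Of the antimicrobial genes, the lectin genes Reg3a and Reg3g lay lower on day 1. Reg3a stood at 320.2 and 342 CPM (Cpa3+/+) and 615 and 334 CPM (Cpa3Cre/+) in immunized mice and 311, 253 and 183 CPM (Cpa3+/+) and 211 and 251 CPM (Cpa3Cre/+) on day 1, with no overlap (-0.72 ± 0.23 and -0.76 ± 0.24). Reg3g stood at 902 and 1243 CPM (Cpa3+/+) and 1143 and 149 CPM (Cpa3Cre/+) and 174, 187 and 316 CPM (Cpa3+/+) and 577 and 262 CPM (Cpa3Cre/+) (-1.55 ± 0.57 and -1.39 ± 0.72), with 3 immunized libraries above and 1, Cpa3Cre/+ replicate 2, below every day 1 library. Ang4, an antimicrobial ribonuclease of Paneth and goblet cells whose reads can be shared with its relatives, stood at 141 and 161 CPM (Cpa3+/+) and 66.8 and 60.3 CPM (Cpa3Cre/+) and 131, 45.4 and 297 CPM (Cpa3+/+) and 395 and 409 CPM (Cpa3Cre/+) (1.56 ± 0.51 without Cpa3+/+ day 1 replicate 2). The values of its Cpa3Cre/+ day 1 libraries were the highest of the 9. Of 14 antimicrobial genes 9 were negative (median -0.07, or -0.27 without the library), of 14 Paneth cell genes 11 positive (0.16, or 0.42) and of 16 goblet cell genes 9 positive (0.07, or 0.28), with 0 called in each. The Paneth cell median over 9 libraries was -0.09 or -0.11 without Cpa3Cre/+ immunized replicate 1 or 2 and -0.04 without Cpa3Cre/+ day 1 replicate 2, and the 0.42 was 0.20, 0.17 and 0.16 without the same libraries. All 3 lists hold Ang4 and Itln1. Summed over the Paneth cell list, the genotypes lay in opposite directions. Cpa3+/+ libraries held 14560 and 15929 CPM in immunized mice and 11373, 6817 and 10801 CPM on day 1. Cpa3Cre/+ libraries held 9144 and 6322 CPM before and 13440 and 19633 CPM on day 1. This difference between genotypes was not tested for the sums. Spink4, a trypsin inhibitor of goblet cells, differed by 0.50 ± 0.23 without the library.

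Lymphocyte genes varied with single libraries. All 19 B cell follicle genes had a negative log2 fold change, with a median of -1.63 (-1.52 without Cpa3+/+ day 1 replicate 2) and 0 called. Their summed CPM was 251 in Cpa3+/+ immunized replicate 1, 218 in Cpa3Cre/+ immunized replicate 2 and 135 in Cpa3Cre/+ day 1 replicate 2, and 36.2 to 53.9 in the other 6 libraries. Peyer's patches, the larger lymphoid organs of the gut wall, had been removed per the labels' protocols. Follicle tissue left in single samples was not tested as a source of these values. Fcmr, an IgM receptor of B cells, stood at 11.1 and 0.649 CPM (Cpa3+/+) and 0.728 and 12.5 CPM (Cpa3Cre/+) in immunized mice and 0.538, 0.0932 and 0.229 CPM (Cpa3+/+) and 0.31 and 4.78 CPM (Cpa3Cre/+) on day 1, and Glycam1, a glycoprotein of the venules through which lymphocytes enter lymphoid tissue, at 14.6 and 0 CPM (Cpa3+/+) and 0.0728 and 13.6 CPM (Cpa3Cre/+) and 0.154, 0 and 0 CPM (Cpa3+/+) and 0.372 and 0.661 CPM (Cpa3Cre/+). The median of the follicle list was -0.31 without Cpa3+/+ immunized replicate 1 alone and -0.02 without the 3 libraries high in it. That choice of libraries was made after the values were seen. T cell genes were negative in 18 of 19 (median -0.24, or -0.15) and plasma cell genes in 16 of 17 (median -0.27, or -0.20). Cpa3Cre/+ immunized replicate 2 was the highest of the 9 libraries for 12 of the 19 T cell genes, and Cpa3+/+ day 1 replicate 2 the lowest for 11. Summed CPM of the T cell list was 178 and 116 (Cpa3+/+) and 188 and 334 (Cpa3Cre/+) in immunized libraries. On day 1 it was 248, 109 and 156 (Cpa3+/+) and 161 and 148 (Cpa3Cre/+). Ighg2c, an antibody heavy chain gene, stood at 1.45 and 0.811 CPM (Cpa3+/+) and 0.437 and 0.993 CPM (Cpa3Cre/+) and 0.231, 0.932 and 0.229 CPM (Cpa3+/+) and 0.31 and 0.294 CPM (Cpa3Cre/+), and Irf4, a factor of plasma cells and lymphocytes, differed by -0.99 ± 0.35 (-0.78 ± 0.23).

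Red blood cell genes had higher values on day 1, and most so in Cpa3+/+ day 1 replicate 2. All 5 tested had a positive value, with a median of 1.51 that was 0.89 without this library, and 0 were called. The 0.89 was 0.51 without Cpa3Cre/+ immunized replicate 1 as well and 1.4 without Cpa3+/+ day 1 replicate 3. Hbb-bs, an adult beta globin gene that shares reads with its neighbour Hbb-bt, stood at 43.6 and 48.3 CPM (Cpa3+/+) and 10.3 and 19.7 CPM (Cpa3Cre/+) in immunized mice and 48.5, 187 and 32.6 CPM (Cpa3+/+) and 58.1 and 84.8 CPM (Cpa3Cre/+) on day 1. The Cpa3Cre/+ immunized libraries held the lowest values and Cpa3+/+ day 1 replicate 2 the highest, and the other Cpa3+/+ libraries overlapped between the states. The part of blood left in the tissue in these values was not tested.

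Whether the genotypes shared the response was tested with the interaction of genotype and state. Over the 9 libraries edgeR called 0 of 16060 genes (0%), with a smallest adjusted p of 0.288 and 1362 genes (8.48%) at an unadjusted p under 0.05, while DESeq2 called 73. Without Cpa3+/+ day 1 replicate 2 edgeR called 2 of 15965 genes (0.0125%) and DESeq2 called 165. There edgeR's interaction test held 2135 genes (13.4%) at an unadjusted p under 0.05, against 714 (4.47%) for the pooled day 1 difference. The response was therefore not shown to be shared across all genes. Both genes called by edgeR had a larger log2 fold change in Cpa3Cre/+ mice (adjusted p = 0.0472, edgeR). Mmp7, the metalloproteinase that activates Paneth cell defensins, stood at 151 and 163 CPM (Cpa3+/+) and 64.2 and 54.3 CPM (Cpa3Cre/+) in immunized mice and 105, 55.9 and 116 CPM (Cpa3+/+) and 161 and 155 CPM (Cpa3Cre/+) on day 1, an interaction of 1.95 ± 0.23. It lay lower on day 1 than before in the Cpa3+/+ and higher in the Cpa3Cre/+ libraries. Ighv8-8, an antibody gene segment, stood at 21.3 and 22.5 CPM (Cpa3+/+) and 4.88 and 4.51 CPM (Cpa3Cre/+) and 4.23, 3.26 and 3.74 CPM (Cpa3+/+) and 8.19 and 5.14 CPM (Cpa3Cre/+) (3.00 ± 0.36). The edgeR count was 0 without Cpa3+/+ immunized replicate 1, Cpa3+/+ day 1 replicate 1 or Cpa3Cre/+ immunized replicate 2, 1 without Cpa3+/+ immunized replicate 2 and 9 without Cpa3Cre/+ day 1 replicate 1. Among the separate genes named above, Hsd11b1 had an interaction of 0.14 ± 0.38 without Cpa3+/+ day 1 replicate 2, Stom of 0.17 ± 0.32 and Kctd14 of -0.28 ± 0.26. For Bhlhe40 it was -0.85 ± 0.30, with an edgeR adjusted p of 0.316.

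The levels in the other states of the series place these values. The day 1 libraries of Hsd11b1 averaged 6.62 ± 4.12 CPM (SD, n = 5), against 3.2 ± 1.73 CPM (SD, n = 5) in naive mice, 3.74 ± 1.48 CPM (SD, n = 4) on day 3 and 4.19 ± 2.87 CPM (SD, n = 5) on day 5. The naive range, 1.21 to 5.56 CPM, covered the immunized values and 4 of the 5 day 1 values. Tsc22d3 averaged 88.2 ± 20 CPM (SD, n = 5) in naive mice and 63.7 ± 15.7 CPM (SD, n = 4) after immunization, and Kctd14 11.6 ± 3.5 CPM (SD, n = 5) and 8.43 ± 1.24 CPM (SD, n = 4). Kctd14 lay at 12.8 to 14.2 CPM on day 3, above every immunized library. Stom averaged 88.2 ± 45.1 CPM (SD, n = 5) in naive, 130.4 ± 25 CPM (SD, n = 4) in immunized, 71.3 ± 13.4 CPM (SD, n = 5) in day 1, 94.2 ± 16.6 CPM (SD, n = 4) in day 3 and 102 ± 26.3 CPM (SD, n = 5) in day 5 mice. Ypel2 was lower in naive mice, at 9.82 to 23.6 CPM, than in every immunized library, and ran from 30.7 to 40.4 CPM on day 5. For Rab43 the immunized libraries, 1.93 to 3.89 CPM, held the highest values of the series on average (3.23 ± 0.902 CPM (SD, n = 4), against 1.31 ± 0.686 CPM (SD, n = 5) in naive and 0.299 ± 0.154 CPM (SD, n = 5) in day 5 mice). Gsdmc4 reached 4.67 to 552 CPM on day 5 but also 63.3 CPM in 1 naive library. In naive mice the library labelled Cpa3Cre/+ replicate 1 held 1.07 CPM of Cpa3, above the other Cpa3Cre/+ naive library at 0.101 CPM, and no direction is drawn from it.

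**Figure D5:**
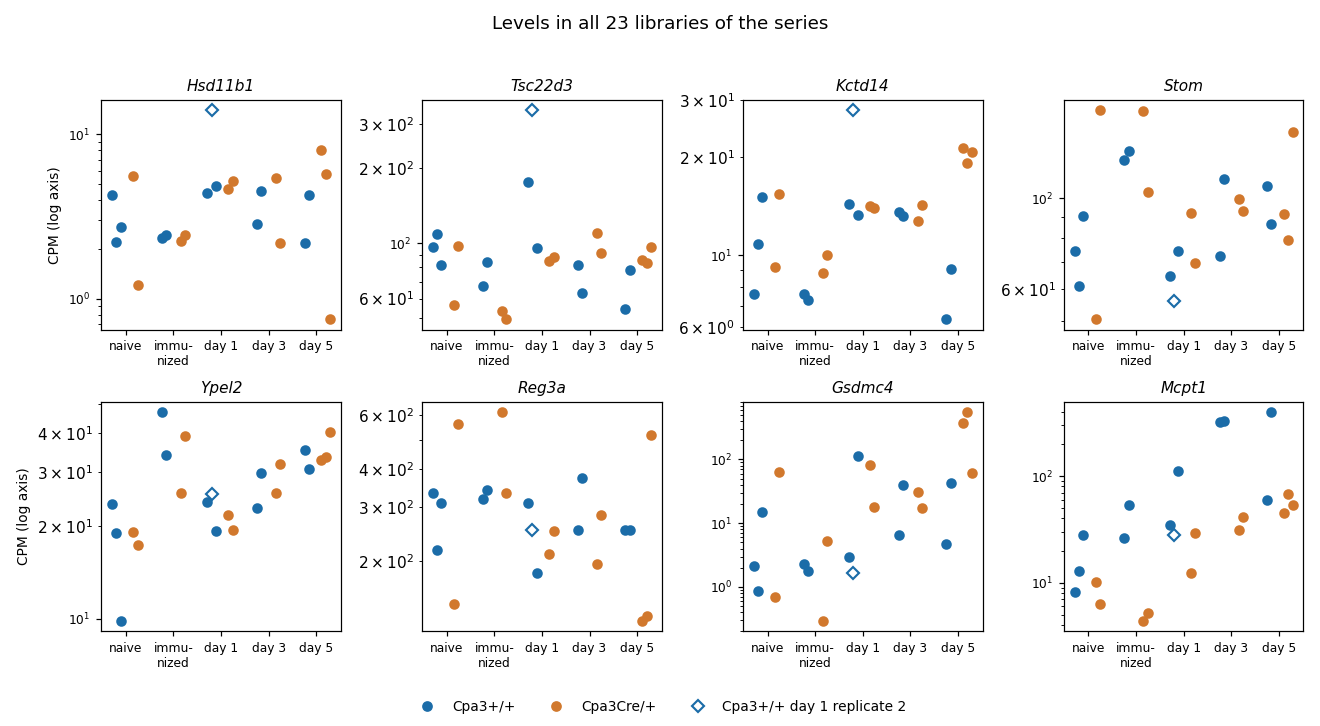
CPM on log axes of 8 genes in all 23 libraries, by state and genotype, with Cpa3+/+ day 1 replicate 2 as an open diamond. Naive libraries of Hsd11b1 run from 1.21 to 5.56 CPM and span the gap between immunized and day 1 libraries, and 1 of 4 immunized values of Gsdmc4 lies above 5 CPM.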

How the data were processed

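RNA was extracted from whole jejunum after removal of fat and Peyer's patches and sequenced from stranded libraries, per the labels' protocols. The authors deposited raw read counts per gene. Per the submitters' processing notes these were made with STAR and featureCounts (Subread 1.5.1), and the build was mm10. The strand setting was not given in the sources used here. Of 55487 genes in the table, 260 had no symbol and held 0.00137% of the reads.

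From the counts, edgeR 4.0.16 (R 4.3.3) fitted genotype and state to the 9 libraries with TMM scaling, its low-count filter and the robust quasi-likelihood test in its older form, the default of that version. P-values were adjusted by Benjamini and Hochberg over every gene in the fit (threshold 0.05), and standard errors are the log2 fold change divided by the square root of F. An interaction term tested the difference between genotypes. DESeq2 1.42.0, limma 3.58.1 (voom with sample weights), other scalings, filters, covariates and each left-out library were alternatives. The procedure was tested on simulated data. Nothing in the labels states that replicates are different mice. The p-values therefore reflect variation among the sequenced samples, and this could be technical.

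Genes named were Cpa3, Mcpt1, Mcpt2, Pck1, Pmaip1 and Cry2, up to 12 genes per direction (as none was called, those of at least 1 CPM with no overlap between states and the smallest unadjusted p), the same without Cpa3+/+ day 1 replicate 2, and the members of smallest p in each list described. Predicted genes, antigen receptor segments and sex-linked marker genes were left out of this rule. The comparison, the members and the 56 gene lists were chosen with earlier results of these data known. Of 79 genes named with a fold change, 26 overlap another annotated gene.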

Additional observations from a re-analysis of the deposited data

Results flagged for a closer look

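Of 79 genes named with a fold change, 23 had a day 1 library far from the other 4 and 4 had an immunized library far from the other 3, by Dixon's test at the 95% level. That test flags about 1 in 20 groups by chance. Many of these genes were named because of their values in the same libraries. Pck1, Pmaip1 and Cry2 were named because they were high in Cpa3+/+ day 1 replicate 2. The counts can therefore not be set against that rate. In 20 of the 23 the library was Cpa3+/+ day 1 replicate 2. It was the highest day 1 library for Pck1 (7483 CPM), Sgk1 (1870 CPM), Mt1 (1366 CPM), Fkbp5 (951 CPM), Mt2 (932 CPM), Pmaip1 (736 CPM), Ddit4 (341 CPM), Cyp2c65 (316 CPM), Per1 (230.4 CPM), Zbtb16 (155 CPM), Crebrf (131 CPM), Cry2 (123 CPM), Cited2 (118 CPM), Mmp10 (67.7 CPM), Kctd14 (28 CPM), Nfil3 (22.7 CPM), Hsd11b1 (14 CPM) and Ighg2c (0.932 CPM). It was the lowest for Kcne3 (8.01 CPM) and Spdef (5.5 CPM).

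The other day 1 values that stood apart were high ones, Mcpt1 (111 CPM) and Mcpt2 (36.7 CPM) in Cpa3+/+ day 1 replicate 3 and Fcmr (4.78 CPM) in Cpa3Cre/+ day 1 replicate 2. Among immunized libraries, Cpa3Cre/+ replicate 1 stood apart for Reg3a (615 CPM), Mt2 (88.6 CPM) and Tnfaip8l3 (19.8 CPM), and Cpa3Cre/+ replicate 2 for Pla2g4c (18 CPM).

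The day 1 response differed between the genotypes, by edgeR's interaction test without Cpa3+/+ day 1 replicate 2, for Mmp7 (Cpa3Cre/+ minus Cpa3+/+ 1.95 on the log2 scale) and Ighv8-8 (3.00). Both missed the threshold when the version 4 quasi-likelihood method was used (smallest adjusted p 0.0521, edgeR).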

How the results depend on the processing

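With 9 libraries, edgeR called 0 genes in either direction in every alternative run except that without a filter on low counts (102 higher, 114 lower). In that fit the estimated prior degrees of freedom were infinite, and with the version 4 method and no filter they were 11.4 and 0 genes were called. Without Cpa3+/+ day 1 replicate 2, the counts of higher and lower genes were 93 and 153 without a filter and 4 and 6 by DESeq2. With female libraries alone 1 gene was called higher, and without the 3 libraries with follicle transcripts 6 were called lower. Leaving out each other library gave 0 to 1 higher and 0 to 2 lower genes. The genotype difference was called for 368 genes without a filter, 73 by DESeq2 and 0 to 2 when single libraries were left out. Without Cpa3+/+ day 1 replicate 2 it was called for 165 genes by DESeq2, 0 by the version 4 method and 0 to 9 when single libraries were left out. The cause was not tested.

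The deviations of same-numbered libraries from their group means correlated at -0.038 to 0.0032. In a group of 2 libraries the deviations mirror each other, so these correlations cannot show whether replicate numbers paired the libraries. With the replicate number as a block, 1 gene was called lower without Cpa3+/+ day 1 replicate 2 and 0 genes in the other counts, and log2 fold changes without that library were -0.37 for Zbtb16, -0.24 for Pmaip1, -0.11 for Cry2 and -0.12 for Cpa3, against 1.12, 0.01, 0.01 and 0.49 without the block.

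Of 3314 alternative values of 158 log2 fold changes, 3182 kept their direction and side of the threshold, 100 passed it and 32 reversed. The reversals with 9 libraries were Mt1 and Mt2 by limma-voom with sample weights (-0.022 and -0.073) and without both day 1 libraries apart on the principal components (-0.27 and -0.13), and Crebrf (0.000885) and Cyp2c55 (0.21) without the 3 libraries with follicle transcripts. Leaving out single libraries gave -0.23 to 2.09 for Mt1 and -0.086 to 3.02 for Mt2. Starting without Cpa3+/+ day 1 replicate 2, leaving out each other library gave -0.42 to 1.55 for Zbtb16, -0.15 to 0.22 for Pmaip1, -0.12 to 0.26 for Cry2, -0.14 to 0.98 for Cpa3, -0.43 to 0.11 for Mt1 and -0.84 to 0.53 for Mt2. There Cry2 was -0.023 by limma-voom and -0.10 without the 3 follicle libraries, and Mt2 was 0.0036 with the other 22 libraries and sex, 0.013 with sex as a covariate and 0.33 in females.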

Other observations

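Lists not described above also held no called gene. Of the absorptive genes, 14 of 18 genes of brush border peptidases and amino acid transporters had a negative log2 fold change (median -0.16, and -0.10 without Cpa3+/+ day 1 replicate 2), as did 13 of 17 genes of fat absorption (-0.09 and -0.06) and 10 of 19 enterocyte genes (-0.01 and -0.06). The genotypes lay in opposite directions in the summed CPM of the fat absorption genes. In Cpa3+/+ libraries it was 40748 and 38909 after immunization and 59940, 77723 and 51180 on day 1. In Cpa3Cre/+ libraries it was 56366 and 71083 against 43904 and 32327. The enterocyte genes did the same, with 46760 and 44500 against 72075, 90776 and 62721 in Cpa3+/+ libraries. Their Cpa3Cre/+ sums were 64548 and 82352.5 against 52639 and 37849. These differences between genotypes were not tested for the sums. Cpa3Cre/+ day 1 replicate 2 was the lowest library for 11 of the 18 peptidase and transporter genes. Of 21 nuclear genes of the respiratory chain 20 were positive, with medians of 0.17 and 0.10. Their summed CPM was higher on day 1 in Cpa3+/+ libraries only, with 8071 and 8196 against 11275, 12381 and 10165. In Cpa3Cre/+ libraries it was lower, with 10373 and 10773 against 9683 and 8743. This was not tested for the sums. Of 19 enteroendocrine genes 16 were positive (0.17 and 0.08). Interferon response genes had 15 of 36 positive values with a median of -0.04, and 22 of 36 with a median of 0.08 without that library. Immediate early genes, which respond to stimuli within minutes to hours, were split evenly, with 11 of 22 positive and a median of 0.02. Their summed CPM also lay in opposite directions by genotype, which was not tested. It was 804 and 978 against 1105, 1152 and 1114 on day 1 in Cpa3+/+ libraries. In Cpa3Cre/+ libraries it was 1130 and 1236 against 982 and 825.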
